A study of Mus musculus with 12 samples.

Results

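The mRNAs described here encode the translation initiation factors and their direct regulators, taken as the genes whose symbol starts with Eif and a digit. In the count table of 55376 genes, 66 symbols matched. The 10 symbols that mark pseudogenes with -ps, and Eif2s3y, were left out, which left 55 members. Of these, 51 had at least 1 CPM (a gene's count scaled to the size of its library) in at least 3 libraries and were tested. The CPM values given below are scaled to a library's total over tested genes times its TMM factor, a correction for RNA composition. The other 4, Eif4e3, Eif4e1b, Eif4ebp3 and Eif2c5, had 0 counts in all 12 libraries, and a count of 0 allows up to 3 counts, which is 0.372 to 1.69 CPM depending on the library, for counting error only. Eif2c is an older name of the Argonaute genes, so Eif2c5 is matched by its spelling only.

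The libraries hold RNA from sucrose gradients of 4T1 cells, a mouse mammary carcinoma line, stably transfected. Mock cells carry the empty vector, and METTL7A1 cells carry full-length Mettl7a1 cDNA in the vector pBICEP-CMV-2, driven by the CMV promoter, and express the methyltransferase-like protein it encodes. All cells received cycloheximide, which holds ribosomes on mRNA, at 0.1 mg/ml for 5 min before lysis. Fractions 3 to 7, with free subunits and monosomes, gave the sub-polysomal pool, and fractions 8 to 11 gave the polysomal pool, with 3 libraries for each pool and genotype (replicates A to C for mock, D to F for METTL7A1). Total counts were 1817520 to 5738989 in mock sub-polysomal, 5966935 to 6966156 in mock polysomal, 3670942 to 5171156 in METTL7A1 sub-polysomal and 5358491 to 6890725 in METTL7A1 polysomal libraries. Mock sub-polysomal replicate A was the shallowest library. The study describes its polysome profiles as fractionations of biological replicates, but the labels do not tie each library to a culture of its own. The p-values measure only the spread between these libraries, which may be technical in part.

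The genotype labels were checked by Mettl7a1, which was at 1.26 to 3.28 CPM in the 6 mock libraries and 237 to 395 CPM in the 6 METTL7A1 libraries. The epithelial genes Krt8, Krt18, Epcam and Cdh1 were at 170.3 CPM or more in all 12 libraries. The leukocyte genes Ptprc, Cd3e and Cd79a, the endothelial genes Pecam1 and Cdh5 and the fibroblast genes Col1a1 and Col3a1 had at most 4 counts in any library, whereas Pdgfra had 4 to 43. The epithelial genes differed between METTL7A1 and mock cells in unlike ways. Among polysomal libraries the log2 changes were 0.82 for Krt8 and 0.61 for Krt18, which passed the test described below, and 0.49 for Cdh1 and 0.14 for Epcam, which did not. Among sub-polysomal libraries they were 0.81 for Krt8 and -0.71 for Epcam, which passed, and 0.05 for Krt18 and -0.081 for Cdh1, which did not. The part of this in the results was not tested.

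Initiation begins when eIF2 brings the initiator tRNA to the small ribosomal subunit, with eIF1, eIF1A, eIF3 and eIF5, and when eIF4F, made of the cap-binding eIF4E, the scaffold eIF4G and the helicase eIF4A, loads an mRNA on it. Once scanning has reached a start codon, eIF5B helps the large subunit to join. The supply of active factors is limited by kinases that phosphorylate eIF2, which blocks its recharging by eIF2B, and by 4E-binding proteins, which keep eIF4E from eIF4G.

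The members took 1.39% to 1.59% of the counts in mock sub-polysomal libraries and 1.90% to 2.01% in mock polysomal libraries. In METTL7A1 cells their share was 1.394% to 1.503% in the sub-polysomal and 1.75% to 1.87% in the polysomal libraries. In both genotypes each polysomal library therefore lay above each sub-polysomal library in its share of total counts. These shares do not use the TMM factors, which were 0.806 to 0.977 in sub-polysomal and 1.11 to 1.23 in polysomal libraries. The order of the pools therefore need not hold on the scale of the CPM values and log2 changes below. Other RNA moved with the pools too. Mitochondrial genes took 6.71% to 8.49% of the counts in mock and 4.37% to 7.67% in METTL7A1 sub-polysomal libraries, against 0.684% to 2.13% and 1.04% to 1.46% in the polysomal ones. The nuclear RNA Neat1 was lower in polysomal RNA at -1.95 in mock and -1.90 in METTL7A1 cells. Between the genotypes it was at 0.74 in polysomal and 0.68 in sub-polysomal RNA without passing. What this does to the values below was not tested. For levels of different mRNAs, CPM was divided by the exon length in kilobases (CPM per kb). On this scale Eif5a, whose protein helps ribosomes past difficult peptide bonds, had the highest mean level in each pool and genotype, from 1196 in METTL7A1 polysomal to 2244 in METTL7A1 sub-polysomal RNA. The order of Eif1 and Eif4a1 behind it turned with the pool. In sub-polysomal RNA Eif1 was at 1014 CPM per kb in mock and 1261 in METTL7A1 cells, against 562 and 501 for Eif4a1. In polysomal RNA Eif1 was at 580.4 and 635 CPM per kb, against 1001 and 954 for Eif4a1. The lowest tested member was Eif2ak3 in mock sub-polysomal (0.896) and mock polysomal RNA (1.23), Eif4g3 in METTL7A1 sub-polysomal RNA (0.501) and Eif5a2 in METTL7A1 polysomal RNA (0.814). The level of Eif2ak3 rests on 9 to 62 counts per library, that of Eif5a2 on 12 to 72 counts per library, and that of Eif4g3 on 13 to 177. The counted exons of Eif4g3 have 10117 bases, against 6139 in its annotated transcript, whereas Eif5a2 has 5027 by both. Which member is lowest can therefore depend on the length used.

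Between the pools, Eif2s1, Eif3b, Eif3c, Eif3m, Eif4a1, Eif4g1 and Eif4g3 were higher in polysomal than in sub-polysomal RNA in both genotypes, and Eif1, Eif1b, Eif1ad, Eif4a2, Eif4e2 and Eif4ebp1 were lower. A member passed at an adjusted p below 0.01 from edgeR's quasi-likelihood test, adjusted over the 12224 genes tested. In mock cells 9 of the 51 members were higher in the polysomal pool, against 15.7% of all genes, and 6 were lower, against 17.9%. In METTL7A1 cells 18 were higher, against 23% of all genes, and 10 were lower, against 23.7%. In mock cells the members' share of higher calls was 17.6%, near that of all genes. A fit of the mock libraries alone passed 10 members there in place of 15, and 25.8% of genes. The median log2 change of the members was 0.20 in mock and 0.22 in METTL7A1 cells, beside 0.054 and 0.058 for all genes, and it was -0.018 in METTL7A1 cells after scaling to Actb. With a log2 change beyond 1.5 as well, 1 member passed in mock (7.55% of all genes) and 2 in METTL7A1 cells (12.1%). The split in METTL7A1 cells turned with the scaling, since with Actb as the reference for scaling 8 members were higher and 10 lower, beside 38.8% of all genes that passed, and this choice moved the median of all genes from 0.058 to -0.18. In mock cells that scaling gave 6 and 6, beside 27% of all genes. The log2 change of Actb itself was 0.08 in mock and 0.24 in METTL7A1 cells, neither of which passed. Whether a change differed between the genotypes was tested by the shift described further below, which no member passed. Replicate, pool and genotype values below are CPM, in the order of the replicate letters.

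**Figure D1:**
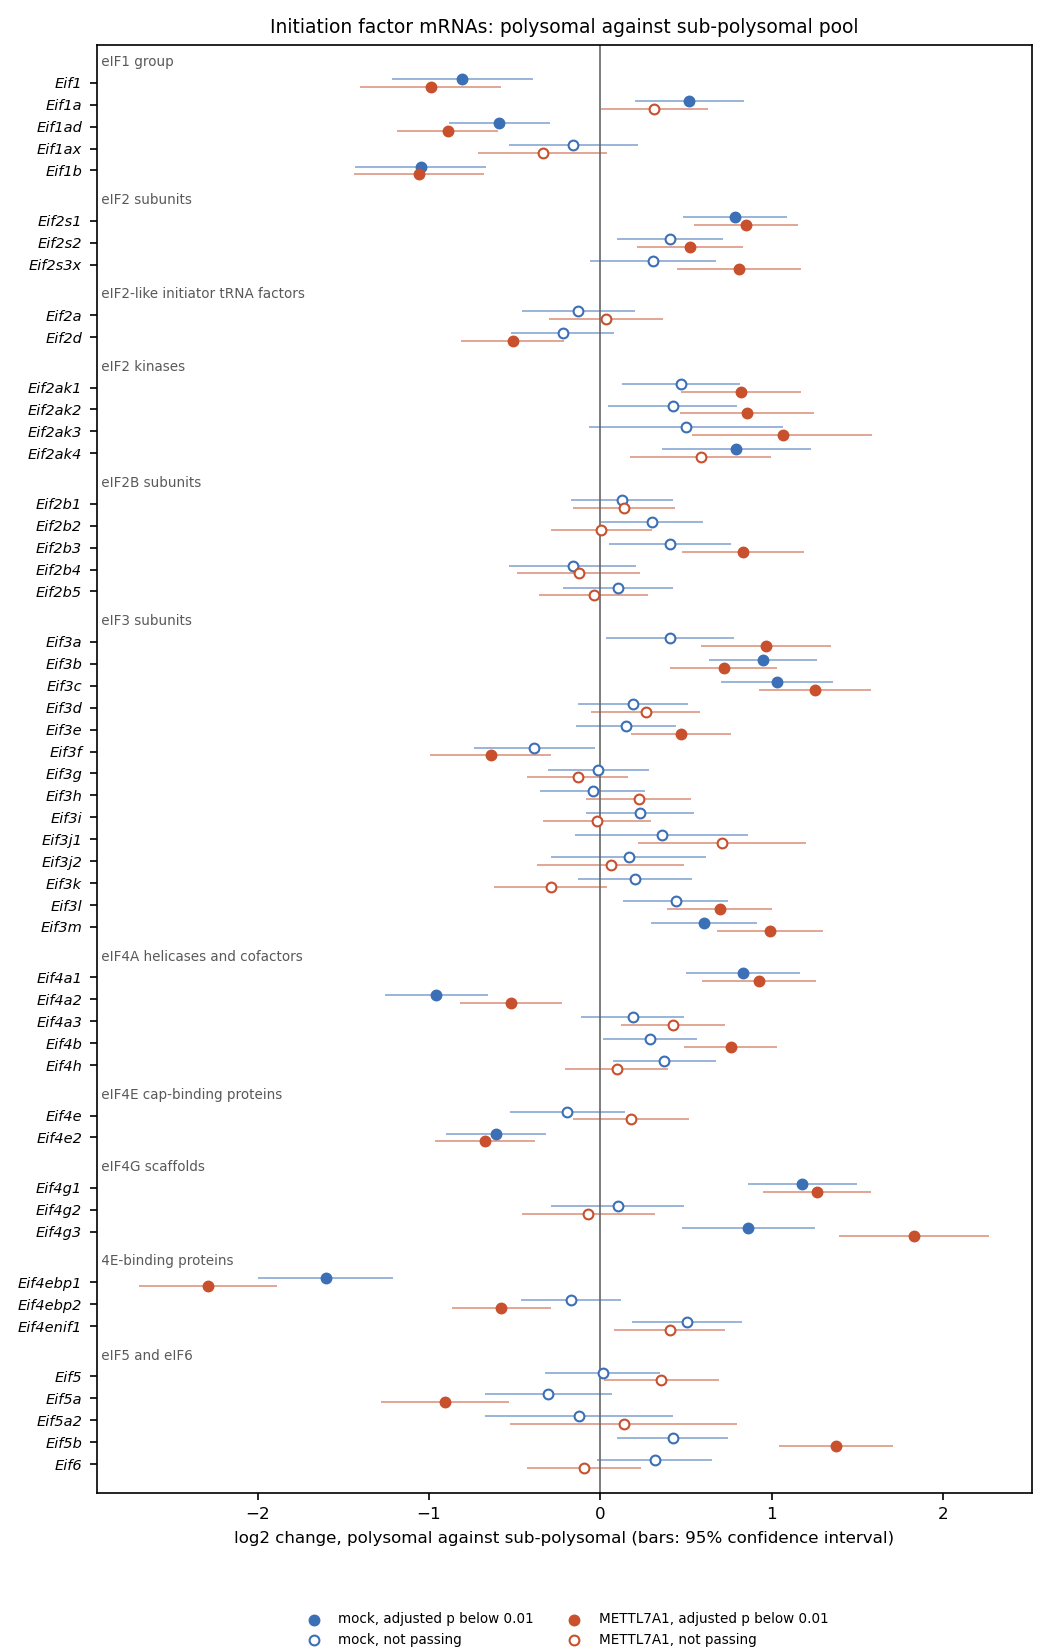
Polysomal against sub-polysomal log2 change for the 51 tested initiation factor mRNAs (by factor group) in mock and METTL7A1 cells, with 95% confidence intervals from edgeR and filled points where the adjusted p was below 0.01. Eif4ebp1 lies farthest to the left in both genotypes, and Eif4g1 in mock and Eif4g3 in METTL7A1 cells farthest to the right.

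In the eIF1 group, 3 of 5 mRNAs were lower in polysomes in both genotypes, beside 17.9% of all genes in mock and 23.7% in METTL7A1 cells. The 5 have coding sequences under 600 bases, a class in which 58.3% of genes were lower in mock and 67.4% in METTL7A1 polysomes. Eif1, which keeps the scanning ribosome from starting at a wrong codon, had 1220, 1371 and 1429 CPM in mock sub-polysomal and 497, 864 and 941 CPM in mock polysomal RNA. In METTL7A1 cells it had 1713, 1668 and 1621 CPM in sub-polysomal and 749.9, 843 and 924 CPM in polysomal RNA. Each polysomal library was below each sub-polysomal one, with mock polysomal replicate A the lowest. The log2 change was -0.80 (standard error 0.20, adjusted p = 0.00256) in mock, where it missed the threshold without mock sub-polysomal replicate C (adjusted p = 0.0105) and in a fit of the mock libraries alone (0.0146), and -0.99 (standard error 0.20, adjusted p = 0.000301) in METTL7A1 cells. For its close relative Eif1b the log2 changes were -1.05 (standard error 0.18, adjusted p = 0.000139) and -1.06 (standard error 0.18, adjusted p = 7.12e-05). With offsets for transcript length, described below, neither Eif1 nor Eif1b passed in either genotype. Eif1ad, an eIF1A-domain protein, fell too, with -0.59 in mock (adjusted p = 0.0138 in a fit of the mock libraries alone) and -0.89 in METTL7A1 cells. Its exons share 428 bases with Banf1 on the other strand, which had 61461 counts against its 10324, and the use of strand in the counting is not given in the sources used here. Eif1a went the other way in mock cells, at 0.52 (standard error 0.15, adjusted p = 0.00863), but missed the threshold without any 1 of 8 libraries (adjusted p = 0.0128 to 0.061), namely mock sub-polysomal B or C, mock polysomal A or B, METTL7A1 sub-polysomal E or METTL7A1 polysomal D, E or F. Its adjusted p was also 0.0883 with Actb scaling, 0.0144 with RLE factors, 0.0396 with the mock libraries alone, 0.0112 with at least 10 counts in every library, 0.0111 with the letter as a block and 0.0161 with offsets for length. In METTL7A1 cells Eif1a did not pass (0.32, adjusted p = 0.0754), nor did Eif1ax in either genotype (-0.16 in mock and -0.34 in METTL7A1 cells).

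The start codons of these mRNAs are shown because Eif1 and Eif1b share an unusual setting. Vertebrate start codons often have a purine 3 bases ahead of the codon and a G right after it. Of the 51 tested members, 23 had both and 3 had neither (Eif1, Eif1b and Eif3b), while among the 10837 tested genes with an annotated coding transcript 46.3% had both and 5.98% had neither. Eif4g2 was the 1 tested member annotated with another codon than ATG. The lines give 12 bases ahead of the codon, the codon in capitals and 9 bases after it, 5′ to 3′, from the GENCODE vM21 transcripts (GRCm38), with Eif4ebp1 and Eif4g1 as the extremes of the mock pool comparison. The count table may rest on another annotation release than these transcripts, and 46 of the 55 members have the same position in both. Of the members shown, Eif1b and Eif4g1 do not.
Eif1 (chr11:100320118-100320141, plus strand): gaatcgtatcgtATGtccgctatc
Eif1b (chr9:120492799-120492822, plus strand): cactagtgtcgcATGtccactatc
Eif3b (chr5:140419349-140419372, plus strand): cagcgcgggcccATGcaggacgct
Eif4g2 (chr7:111081536-111081559, minus strand): caagccgccaaaGTGgagagtgcg
Eif4ebp1 (chr8:27260397-27260420, plus strand): cgtgcaggagacATGtcggcgggc
Eif4g1 (chr16:20673890-20673913, plus strand): gcaccaaatgaaATGaacaaagct
Eif1 and Eif1b were lower in polysomes in both genotypes, whereas Eif3b was higher in polysomes in both genotypes. The context is therefore a description of these letters and was not tested against the pools.

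All 3 eIF2 subunit mRNAs were higher in the polysomes of METTL7A1 cells, beside 23% of all genes. In mock cells 1 of them passed as higher, beside 15.7%. Eif2s1, the subunit that the eIF2 kinases phosphorylate, had 222, 179 and 230.0 CPM in mock sub-polysomal and 414, 343 and 333 CPM in mock polysomal RNA. In METTL7A1 cells the values were 137, 157 and 166 CPM and 277, 286 and 268 CPM. The pools did not overlap in either genotype, and the log2 changes were 0.79 (standard error 0.15, adjusted p = 0.000241) and 0.85 (standard error 0.15, adjusted p = 6.83e-05). Eif2s3x, whose protein binds GTP and the initiator tRNA, had 59.0, 46.4 and 50.9 CPM in METTL7A1 sub-polysomal and 92.7, 93.9 and 86.4 CPM in METTL7A1 polysomal RNA. Its log2 change there was 0.81 (standard error 0.17, adjusted p = 0.000604), and in mock cells, where the libraries of the pools overlapped, 0.31 (standard error 0.18, adjusted p = 0.16). Eif2s2 passed in METTL7A1 cells (0.52, adjusted p = 0.00498) but not without METTL7A1 polysomal replicate D, E or F or METTL7A1 sub-polysomal replicate D (adjusted p = 0.0113 to 0.0344). With Actb scaling the adjusted p was 0.18 for Eif2s2 and 0.0226 for Eif2s3x, with the direction as before. With offsets for GC content it was 0.152 for Eif2s2 and 0.0204 for Eif2s3x, so that of the 3 subunits Eif2s1 alone kept its call in these settings. Eif2d, which can deliver tRNA without eIF2, was lower in METTL7A1 polysomes at -0.51, a call that was lost without any 1 of the 6 METTL7A1 libraries (adjusted p = 0.0117 to 0.026). Eif2a, another factor that can bring the initiator tRNA, was at -0.13 in mock and 0.033 in METTL7A1 cells (-0.013 with RLE factors and -0.20 with Actb scaling) without passing.

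The mRNAs that control eIF2 differed from each other. Of the 5 subunits of eIF2B, which recharges eIF2 with GTP, only Eif2b3 passed as higher, in METTL7A1 cells, beside 23% of all genes. Its log2 change was 0.83 (standard error 0.17, adjusted p = 0.000397). Its adjusted p was 0.0124 with Actb scaling. The others lay between -0.13 (Eif2b4) and 0.14 (Eif2b1) in METTL7A1 cells, and in mock cells the log2 changes were -0.16 (Eif2b4) to 0.41 (Eif2b3) without passing. Of the 4 eIF2 kinases, 3 passed as higher in METTL7A1 polysomes, beside 23% of all genes, and the other, Eif2ak4, in mock polysomes, beside 15.7%. The 4 have coding sequences of 1500 bases or more, a class in which 38.2% of genes were higher in METTL7A1 and 28.8% in mock polysomes. Eif2ak3, the kinase of the endoplasmic reticulum, had 4.97, 4.71 and 3.11 CPM in METTL7A1 sub-polysomal and 8.36, 7.96 and 10.3 CPM in METTL7A1 polysomal RNA, without overlap. Its log2 change was 1.06 (standard error 0.25, adjusted p = 0.00135), and the adjusted p was 0.0139 without METTL7A1 sub-polysomal replicate F. Eif2ak1, the haem-regulated kinase, was at 0.82 (standard error 0.17, adjusted p = 0.000351) and Eif2ak2, the kinase that senses double-stranded RNA, at 0.85 (standard error 0.19, adjusted p = 0.000716). Exons of Eif2ak1 share 974 of 4325 bases with Aimp2 on the other strand, which had 8323 counts against 2316, so part of the Eif2ak1 counts may come from Aimp2. With Actb scaling these 3 had adjusted p-values of 0.0106 to 0.0231. With offsets for transcript length they had 0.0144 to 0.0236, and with those for GC content Eif2ak2 had 0.0184. Eif2ak4, the kinase of amino acid shortage, had 11.8, 10.1 and 9.47 CPM in mock sub-polysomal and 19.4, 18.4 and 15.4 CPM in mock polysomal RNA, at 0.79 (standard error 0.21, adjusted p = 0.00419). It missed the threshold without mock polysomal replicate A or B or mock sub-polysomal replicate B or C (adjusted p = 0.0121 to 0.0337) and with Actb scaling (0.0143). With offsets for transcript length its log2 change was 0.395 (adjusted p = 0.128). The lowest kinases, neither of which passed, were Eif2ak2 in mock at 0.42 and Eif2ak4 in METTL7A1 cells at 0.59.

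The 14 eIF3 subunit mRNAs, which encode the largest initiation factor, spanned a wide range of levels. Per length and as a mean over the 12 libraries, Eif3i was highest at 355 CPM per kb, whereas Eif3c was at 37.6 and Eif3a at 28.0. Eif3j1 at 3.67 and Eif3j2 at 11.0 were lowest, but they are close copies of each other and may have shared reads. In mock cells 3 of the 14 were higher in polysomes, or 21.4% beside 15.7% of all genes. In METTL7A1 cells 6 were higher, beside 23% of all genes, and 1 lower, beside 23.7%. Eif3c, a core subunit, had 86.3, 85.6 and 91.8 CPM in mock sub-polysomal and 222, 152 and 168 CPM in mock polysomal RNA. In METTL7A1 cells it had 65.7, 78.4 and 69.1 and 162, 196 and 151 CPM. The pools were well apart in both genotypes, at 1.03 (standard error 0.16, adjusted p = 3.63e-05) and 1.25 (standard error 0.16, adjusted p = 2.38e-06). Eif3b, the subunit with an RNA recognition motif that anchors Eif3g and Eif3i, passed in both at 0.95 and 0.72, and so did Eif3m at 0.61 and 0.99. Of these, Eif3m missed the threshold in mock cells without mock polysomal replicate A or mock sub-polysomal replicate B (adjusted p = 0.0116 to 0.0169), in a fit of the mock libraries alone (0.0141) and with Actb scaling (0.0262), and Eif3b missed it in METTL7A1 cells with Actb scaling (0.0198).

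**Figure D2:**
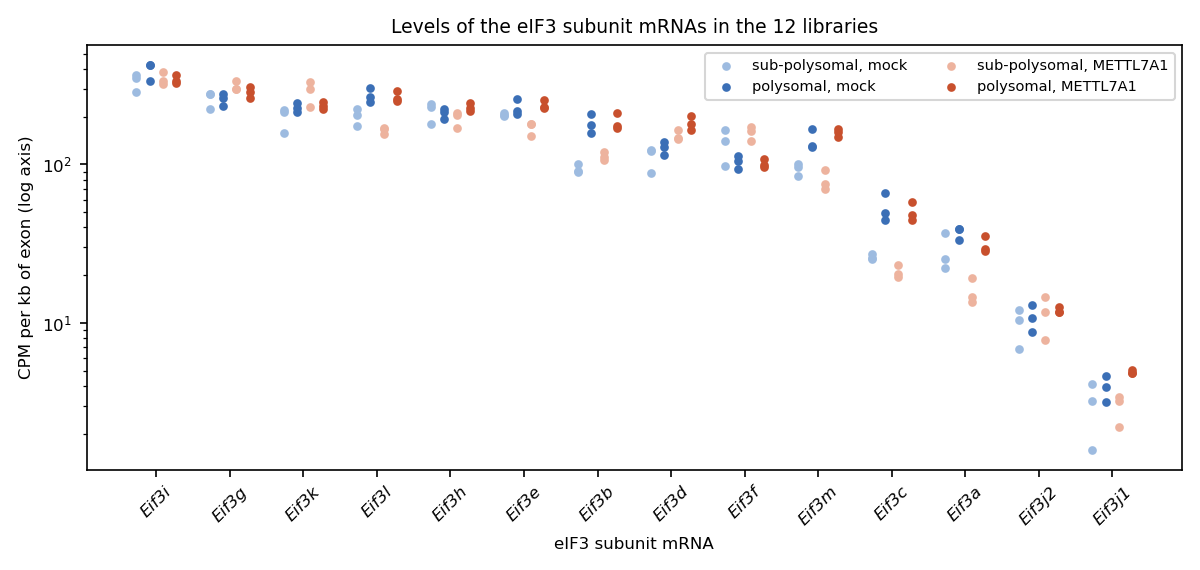
CPM per kb of exon, on a log axis, of the 14 eIF3 subunit mRNAs in each of the 12 libraries, 3 points for each pool and genotype, ordered by the mean over the libraries. Eif3i is at the top and Eif3j1 at the bottom, and Eif3c and Eif3a lie well below the subunits from Eif3i to Eif3m.

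Eif3f was the 1 eIF3 mRNA that was lower in polysomes, with 354, 430.0 and 411 CPM in METTL7A1 sub-polysomal and 249, 274 and 244 CPM in METTL7A1 polysomal RNA. These libraries did not overlap, and the log2 change was -0.64 (standard error 0.17, adjusted p = 0.00304). It was -0.38 (standard error 0.17, adjusted p = 0.0671) in mock cells, where they did overlap. Without METTL7A1 polysomal replicate D or F or METTL7A1 sub-polysomal replicate E or F, the METTL7A1 value missed the threshold (adjusted p = 0.0101 to 0.0178). In METTL7A1 cells Eif3a also passed as higher at 0.97 (standard error 0.18, adjusted p = 0.000171) and Eif3l at 0.70 (standard error 0.15, adjusted p = 0.000496), with an adjusted p of 0.0223 for Eif3l under Actb scaling. Eif3e passed in METTL7A1 cells at 0.47 but not without any 1 of the 6 METTL7A1 libraries or mock sub-polysomal replicate C (adjusted p = 0.0101 to 0.0381) or with Actb scaling (0.22). The other 7, from Eif3d to Eif3k, did not pass in either genotype.

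Eif3f and Eif2s3x were the 2 of 42 tested members with a RefSeq start whose first base is a C followed by at least 4 pyrimidines, the opening of terminal oligopyrimidine mRNAs, whose translation depends on mTOR. Among 9030 tested genes with a RefSeq start, 3.11% had such a start. The first 30 bases from the RefSeq start (GRCm38.p6) are shown, 5′ to 3′ on the strand of the gene, with the pyrimidine run in capitals.
Eif3f (chr7:108934415-108934444, plus strand): CTCTCTTTCTCggcaagatggcttctccgg
Eif2s3x (chrX:94212622-94212651, minus strand): CTTTTCTCTCCgagcaagatggctgggggt
A match is a description of these letters. In the count table the 5′ end of Eif2s3x is at base 94212709, ahead of this RefSeq start at 94212651. The run therefore does not open the gene as annotated there. In METTL7A1 cells Eif3f was lower and Eif2s3x higher in the polysomal pool, as given above.

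The eIF4A mRNAs went opposite ways. Eif4a1, the main helicase of eIF4F, had 922, 946 and 1121 CPM in mock sub-polysomal and 2091, 1649 and 1590 CPM in mock polysomal RNA. In METTL7A1 cells it had 892, 875 and 902 and 1697, 1751 and 1630 CPM. All polysomal libraries were higher, and the log2 changes were 0.83 (standard error 0.16, adjusted p = 0.00032) and 0.93 (standard error 0.16, adjusted p = 6.87e-05). Eif4a2, its paralog, had 904, 774 and 723 CPM in mock sub-polysomal and 371, 429 and 435 CPM in mock polysomal RNA. In METTL7A1 cells the values were 601, 572 and 626 and 419, 407 and 427 CPM. All polysomal libraries were lower, at -0.96 (standard error 0.14, adjusted p = 3.18e-05) and -0.52 (standard error 0.14, adjusted p = 0.00404). The METTL7A1 value missed the threshold without METTL7A1 polysomal replicate D, E or F or METTL7A1 sub-polysomal replicate F (adjusted p = 0.0128 to 0.0205). In all, 18 of the 23 other settings run kept this call. The coding sequences have 406 and 407 codons, so that the paralogs differ little in that length. Eif4a-ps4, a pseudogene entry with 12 to 153 counts, may hold some reads of these mRNAs, and 341 exon bases of Eif4a2 are shared with Rfc4 on the other strand. Eif4b, a cofactor of the helicase, rose in METTL7A1 polysomes at 0.76 (standard error 0.13, adjusted p = 6.83e-05), with an adjusted p of 0.01 under Actb scaling, and was at 0.29 (standard error 0.13, adjusted p = 0.075) in mock cells. Eif4a3, a helicase of the exon junction complex, and Eif4h, a cofactor, did not pass in either genotype.

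Of the scaffolds, Eif4g1 had 146, 119.6 and 127 CPM in mock sub-polysomal and 333, 252 and 302 CPM in mock polysomal RNA (chromosome 16, 20672723 to 20692884 of GRCm38). In METTL7A1 cells it had 165, 139 and 142 and 366, 391 and 313 CPM. The pools lay far apart, and the log2 changes of 1.18 (standard error 0.15, adjusted p = 7.55e-06) in mock and 1.26 (standard error 0.15, adjusted p = 1.38e-06) in METTL7A1 cells included the highest of any member in mock. Eif4g3, a rarer scaffold, had 14.7, 11.0 and 11.2 CPM in mock sub-polysomal and 24.2, 20.1 and 21.1 CPM in mock polysomal RNA. In METTL7A1 cells the values were 4.31, 3.97 and 6.93 and 19.2, 17.5 and 18.5 CPM, the lowest of all being in METTL7A1 sub-polysomal RNA. Its log2 changes were 0.86 (standard error 0.19, adjusted p = 0.000898) and 1.83 (standard error 0.21, adjusted p = 8.89e-07). With offsets for transcript length the mock value was 0.37 and did not pass (adjusted p = 0.0979). Eif4g2, which lacks the site for eIF4E, was not separated by pool, at 0.10 (95% interval -0.29 to 0.49) in mock and -0.069 (-0.46 to 0.32) in METTL7A1 cells.

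Of the cap-binding proteins, Eif4e did not pass in either genotype (-0.19 in mock, 95% interval -0.53 to 0.15, and 0.18 in METTL7A1 cells, -0.16 to 0.52, where Actb scaling turned it to -0.05). Eif4e2, a homologue tied to repression, was lower in polysomes at -0.61 (standard error 0.14, adjusted p = 0.00161) in mock, with an adjusted p of 0.0122 in a fit of the mock libraries alone, and -0.67 (standard error 0.14, adjusted p = 0.000447) in METTL7A1 cells. Eif4ebp1 (chromosome 8, 27260329 to 27276674 of GRCm38), which encodes the mTOR-controlled inhibitor of eIF4E, had 312, 358 and 306 CPM in mock sub-polysomal and 69.8, 126 and 126 CPM in mock polysomal RNA. In METTL7A1 cells it had 349.8, 383 and 419.9 and 69.3, 84.4 and 82.0 CPM. The polysomal libraries were far below the sub-polysomal ones in both genotypes. The log2 changes, -1.60 (standard error 0.19, adjusted p = 3.05e-06) and -2.29 (standard error 0.19, adjusted p = 5.13e-08), were the lowest of any member in both genotypes and the only ones of the members below -1.5. Eif4ebp2 fell in METTL7A1 cells at -0.58 (standard error 0.14, adjusted p = 0.00146) and was at -0.17 (standard error 0.14, adjusted p = 0.328) in mock, and the adjusted p was 0.0121 without METTL7A1 polysomal replicate D. The difference between the genotypes, -0.41, did not pass (adjusted p = 0.323). Eif4enif1, which carries eIF4E into the nucleus, was at 0.51 and 0.41 without passing.

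**Figure D3:**
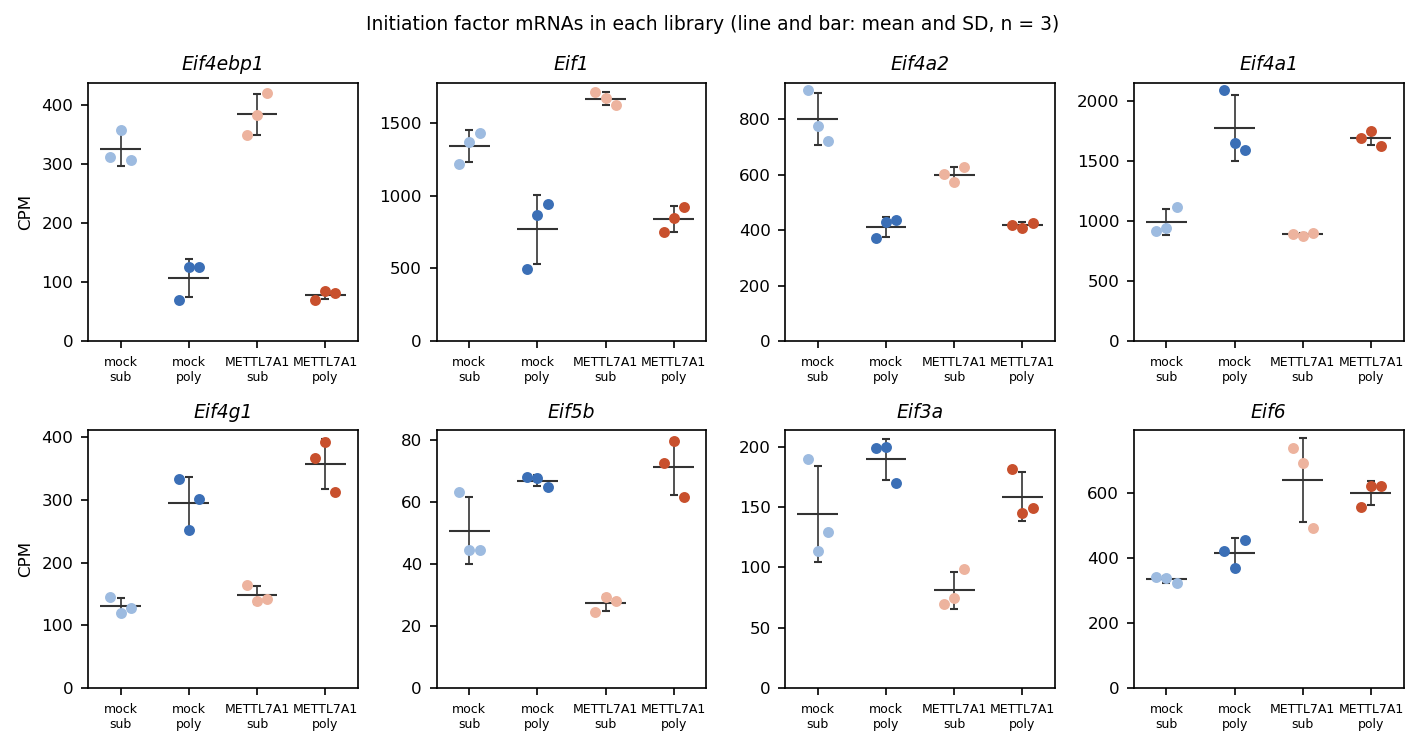
CPM of 8 initiation factor mRNAs in each library (points), with the mean and SD of the 3 libraries of each pool and genotype. Eif4ebp1, Eif1 and Eif4a2 are lower and Eif4a1 and Eif4g1 higher in all polysomal than in all sub-polysomal libraries of the same genotype, and METTL7A1 sub-polysomal RNA is lowest for Eif5b and Eif3a.

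Of the factors of start codon recognition and subunit joining, Eif5b (chromosome 1, 37998010 to 38055579 of GRCm38), the GTPase of subunit joining, had 24.5, 29.5 and 28.0 CPM in METTL7A1 sub-polysomal and 72.5, 79.5 and 61.5 CPM in METTL7A1 polysomal RNA. In mock cells it had 63.2, 44.4 and 44.6 and 68.0, 67.8 and 64.7 CPM. The polysomal libraries were higher in both genotypes, and the METTL7A1 sub-polysomal libraries were the lowest of all. The log2 change was 1.38 (standard error 0.16, adjusted p = 1.05e-06) in METTL7A1 cells and 0.42 (standard error 0.15, adjusted p = 0.0316) in mock, and with offsets for transcript length it was 0.70 (adjusted p = 0.000446) and turned to -0.15. Its exons share 1240 of 7797 bases with Rev1 on the other strand, which had 1376 counts over the 12 libraries against 3814. Eif5a was lower in METTL7A1 polysomes, at 2535, 2849 and 3147 CPM against 5793, 5634 and 4577 CPM, which is -0.91 (standard error 0.18, adjusted p = 0.000252). With offsets for transcript length that value was -0.44 and did not pass (adjusted p = 0.0161). In mock cells the log2 change of Eif5a was -0.30 (standard error 0.18, adjusted p = 0.165). The pseudogene entry Eif5al3-ps had 18 to 155 counts. Eif5, the GTPase-activating protein of eIF2, Eif5a2 and Eif6, which keeps the ribosomal subunits apart, did not pass in either genotype.

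In the polysomal pool, METTL7A1 and mock cells were compared for the level of these mRNAs among polysomes, and 0 of the 51 members passed by edgeR, against 5.03% of all genes that were higher and 3.78% that were lower (2.13% with a log2 change beyond 1.5). At an unadjusted p below 0.05 there were 10, beside 31.2% of all genes. Limma-voom passed 0 members and 9.1% of all genes, and DESeq2 passed 4 members and 10.5% of all genes. Without mock sub-polysomal replicate A or mock polysomal replicate A, 2 members passed, beside 9.62% and 8.73% of all genes. The median log2 change was -0.026, or 0.076 with Actb scaling, beside -0.014 for all genes, or 0.082 with that scaling. At an adjusted p below 0.05 there were 5 members, beside 18% of all genes. These were Eif3d at 0.52 (standard error 0.15, adjusted p = 0.0217), Eif6 at 0.52 (standard error 0.16, adjusted p = 0.0281) and Eif4b at 0.46 (standard error 0.13, adjusted p = 0.0173), which were higher, and Eif2d at -0.49 (standard error 0.14, adjusted p = 0.022) and Eif5a2 at -0.91 (standard error 0.25, adjusted p = 0.0175), which were lower. Eif4b had 264, 228 and 226 CPM in mock and 310.3, 356 and 323 CPM in METTL7A1 polysomal RNA, with every METTL7A1 library above every mock library. For Eif4ebp1 the values were 69.8, 126 and 126 CPM and 69.3, 84.4 and 82.0 CPM, which overlapped (-0.45, adjusted p = 0.104). The differences farthest from 0 were those of Eif2ak3 (0.56) and Eif5a2 (-0.91). Both genotype comparisons are of RNA within a pool, so a different total amount of an mRNA and a different share on ribosomes, or fewer cells with an mRNA and less of it per cell, cannot be told apart.

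**Figure D4:**
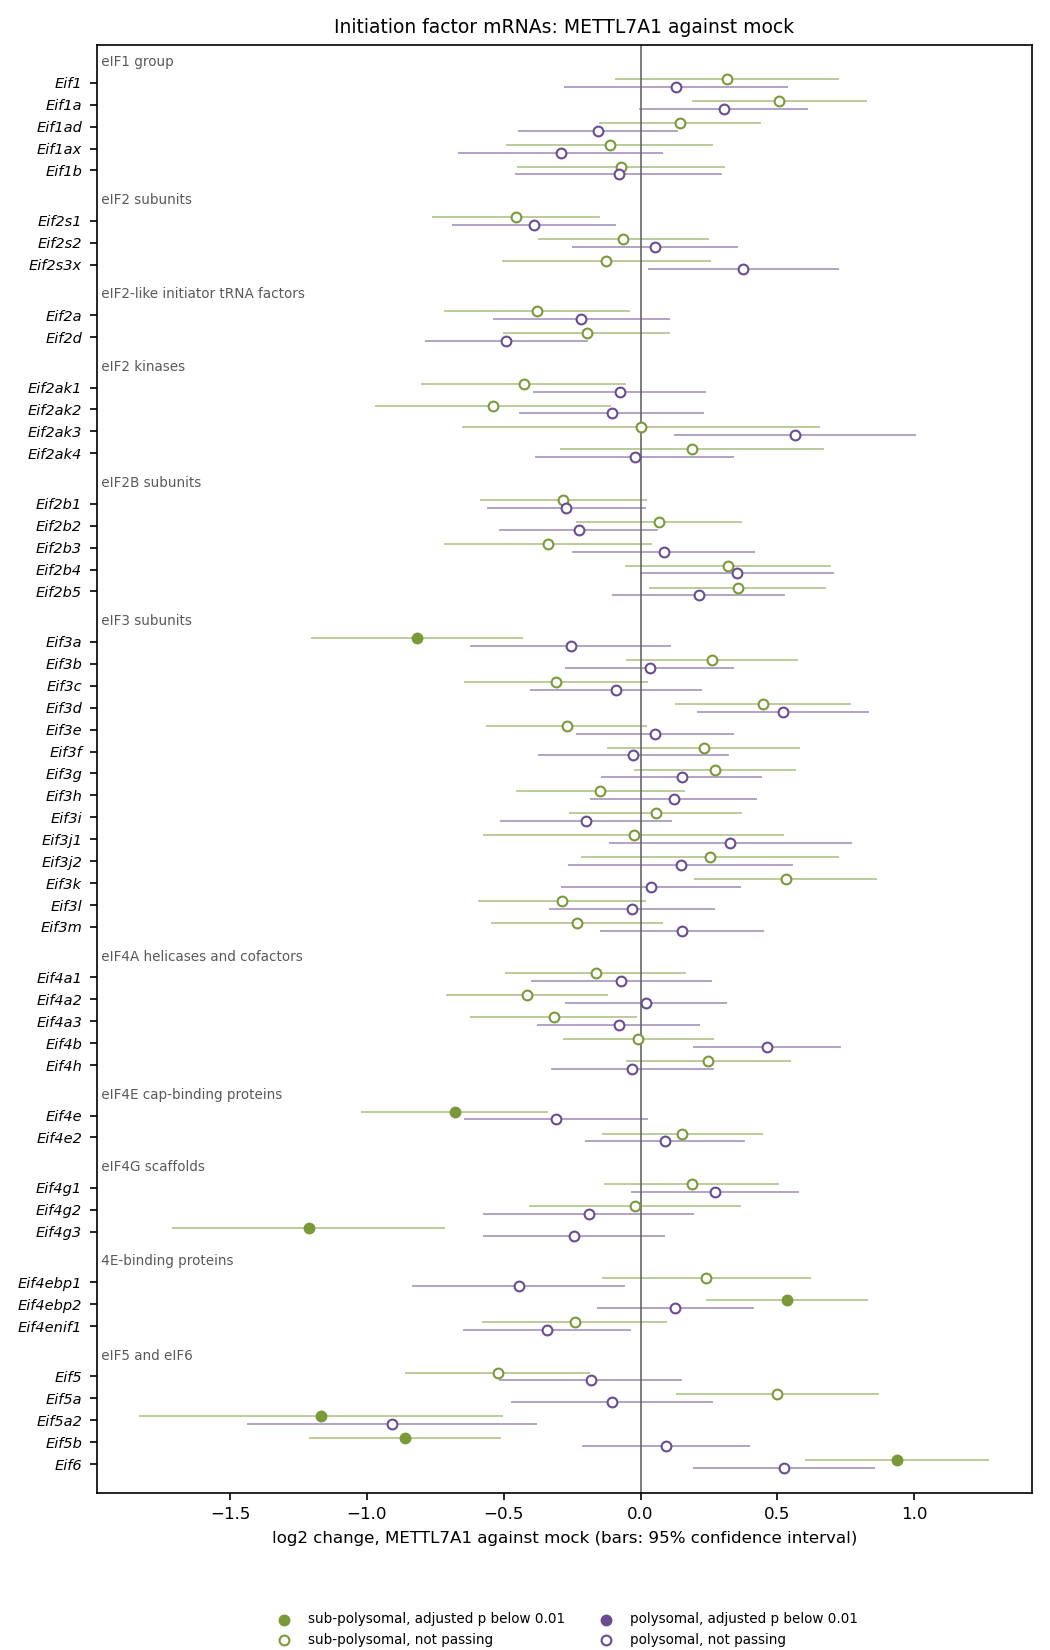
Log2 change from mock to METTL7A1 cells for the 51 tested initiation factor mRNAs (by factor group) in the sub-polysomal and in the polysomal pool, with 95% confidence intervals from edgeR and filled points where the adjusted p was below 0.01. The 7 filled points are all sub-polysomal, with Eif6 farthest to the right and Eif4g3 farthest to the left of them.

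In the sub-polysomal pool 2 members were higher in METTL7A1 cells, against 10.5% of all genes, and 5 were lower, against 7.69%, with 0 beyond a log2 change of 1.5 (2.76% of all genes). At an unadjusted p below 0.05 there were 19, beside 42.3% of all genes. DESeq2 passed 13 members and 20.3% of all genes, and limma-voom 6 members and 17% of all genes. The higher members were Eif6 and Eif4ebp2, and the lower were Eif3a, Eif4e, Eif4g3, Eif5b and Eif5a2. The count was 3 without mock sub-polysomal replicate A or METTL7A1 sub-polysomal replicate E (13.3% and 11.3% of all genes), and 4 without mock sub-polysomal replicate C or METTL7A1 sub-polysomal replicate D (12.6% and 12.4%). Scaling to Actb turned the split to 6 higher and 1 lower, with the median of all genes at 0.26, and upper-quartile factors gave 1 higher and 6 lower. The members' median was -0.063 and that of all genes -0.0015, but it was 0.18 with Actb scaling.

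Eif6 (chromosome 2, 155819832 to 155826925 of GRCm38) had 340.3, 339 and 323 CPM in mock and 736, 691 and 492 CPM in METTL7A1 sub-polysomal RNA. All METTL7A1 libraries were higher, with replicate F the nearest to mock, and the log2 change was 0.94 (standard error 0.16, adjusted p = 0.0003). With offsets for GC content, described below, it was 0.46 and did not pass (adjusted p = 0.0144). Eif5b had 63.2, 44.4 and 44.6 CPM in mock and 24.5, 29.5 and 28.0 CPM in METTL7A1 sub-polysomal RNA, without overlap, at -0.86 (standard error 0.17, adjusted p = 0.000834). Its polysomal level did not pass between the genotypes (0.093, 95% interval -0.21 to 0.40). Eif4g3 was at -1.21 (standard error 0.24, adjusted p = 0.00087), with each METTL7A1 library below each mock library. It was also the 1 member whose adjusted p stayed below 0.01 in every setting run.

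Eif3a, the large scaffold of eIF3, had 189.6, 114 and 129 CPM in mock and 69.6, 74.7 and 98.5 CPM in METTL7A1 sub-polysomal RNA. Mock replicate A stood above the other mock libraries, and the genotypes did not overlap. The log2 change was -0.82 (standard error 0.18, adjusted p = 0.00258), and the adjusted p was 0.0168 to 0.0217 without mock sub-polysomal replicate A or METTL7A1 sub-polysomal replicate D or E. Eif4e had 305, 258 and 294 CPM in mock and 133, 192 and 209 CPM in METTL7A1 sub-polysomal RNA, at -0.68 (standard error 0.16, adjusted p = 0.00404). METTL7A1 replicate D was the lowest, and the call was lost without mock sub-polysomal replicate A or C or METTL7A1 sub-polysomal replicate D or E (adjusted p = 0.0117 to 0.0251). With Actb scaling the adjusted p was 0.0419 for Eif3a, 0.0867 for Eif4e, 0.0201 for Eif5b and 0.0495 for Eif5a2. Eif4ebp2, at 0.54 (standard error 0.14, adjusted p = 0.00746), and Eif5a2, at -1.17 (standard error 0.32, adjusted p = 0.00921), passed narrowly and each missed the threshold without any 1 of the 6 METTL7A1 libraries or mock sub-polysomal replicate A or C (adjusted p = 0.0103 to 0.0352 and 0.0108 to 0.0398). Eif2s1 did not pass at -0.45 (standard error 0.15, adjusted p = 0.0243), although all METTL7A1 libraries lay below the mock libraries in both pools.

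By factor group, the log2 changes between the genotypes ran as follows, with those that passed as given above. In the eIF1 group they ran from -0.11 (Eif1ax, 0.12 with Actb scaling) to 0.51 (Eif1a) in sub-polysomal RNA, and from -0.29 (Eif1ax) to 0.30 (Eif1a) in polysomal RNA. The eIF2 subunits ran from -0.45 (Eif2s1) to -0.063 (Eif2s2, 0.18 with Actb scaling) in the sub-polysomal and -0.39 (Eif2s1) to 0.38 (Eif2s3x) in the polysomal pool, and Eif2a and Eif2d were at -0.38 and -0.20 (0.077 with Actb scaling) in the first and -0.22 and -0.49 in the other. For the eIF2 kinases the ranges were -0.54 (Eif2ak2) to 0.19 (Eif2ak4) and -0.11 (Eif2ak2, 0.0006 with Actb scaling) to 0.56 (Eif2ak3), and for eIF2B -0.34 (Eif2b3) to 0.35 (Eif2b5) and -0.27 (Eif2b1) to 0.35 (Eif2b4), in the same order of pools. By edgeR 0 of these mRNAs of eIF2, its kinases and eIF2B, or of Eif2a and Eif2d, 14 in all, passed in either pool, with 5 below an unadjusted p of 0.05 in the sub-polysomal and 4 in the polysomal pool, beside 42.3% and 31.2% of all genes. The eIF3 subunits spanned -0.82 (Eif3a) to 0.53 (Eif3k) and -0.25 (Eif3a) to 0.52 (Eif3d). The helicases and cofactors spanned -0.41 (Eif4a2) to 0.25 (Eif4h) and -0.08 (Eif4a3, 0.019 with Actb scaling) to 0.46 (Eif4b). Eif4e2 was at 0.15 and 0.09, Eif4g1 at 0.19 and 0.27, and Eif4enif1 at -0.24 (0.017 with Actb scaling) and -0.34.

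The shift to polysomes asks whether the step between the pools differed between the genotypes, and is the polysomal to sub-polysomal log2 change in METTL7A1 cells minus that in mock cells. By edgeR 0 of the 51 members and 0% of all genes passed. At an unadjusted p below 0.05 there were 8 members, or 15.7%, beside 15.6% of all genes, and DESeq2 passed 1 member and 0.524% of all genes, and limma-voom 0 of either. The smallest adjusted p of a member was 0.114, that of Eif5b, whose shift was 0.95 (95% interval 0.49 to 1.42). Eif4g3 had the highest shift at 0.97 (0.37 to 1.57), and Eif4ebp1 the lowest at -0.69 (-1.23 to -0.14). The members called in 1 genotype and not in the other, such as Eif3a (shift of 0.56, adjusted p = 0.295) and Eif2s3x (0.50, adjusted p = 0.334), were therefore not shown to differ between the genotypes. The shift of Eif4a2 was 0.44 (0.016 to 0.86, adjusted p = 0.302), that of Eif4b 0.47 (0.085 to 0.86, adjusted p = 0.229) and that of Eif4e 0.37 (-0.11 to 0.85, adjusted p = 0.453). For Eif4g1 the shift was 0.086 (-0.36 to 0.53), or -0.064 with Actb scaling, and for Eif2s1 0.064 (-0.36 to 0.49), or -0.071. The members' median was 0.064, beside -0.0079 for all genes, and Actb scaling moved these to -0.10 and -0.17.

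By factor group the shift ran from -0.30 (Eif1ad) to -0.0086 (Eif1b, 0.021 with upper-quartile factors) in the eIF1 group, from 0.064 (Eif2s1, -0.071 with Actb scaling) to 0.50 (Eif2s3x) for the eIF2 subunits and from -0.21 (Eif2ak4) to 0.56 (Eif2ak3) for the kinases. Eif2a was at 0.16 and Eif2d at -0.29. The shift ran from -0.29 (Eif2b2) to 0.42 (Eif2b3) for eIF2B, from -0.49 (Eif3k) to 0.56 (Eif3a) for eIF3 and from -0.28 (Eif4h) to 0.47 (Eif4b) for the helicases and their cofactors. Eif4e was at 0.37 and Eif4e2 at -0.063, and Eif4g2 at -0.17, Eif4enif1 at -0.10 and Eif5a at -0.60 were the remaining ends of their groups.

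The pool change of the members moved with the length of the coding sequence. Across the 51 members, Spearman's rho between coding length and pool change was 0.572 in mock and 0.66 in METTL7A1 cells, and across 10837 genes it was 0.547 and 0.538, where genes share the libraries and are not independent. The 9 members with a coding sequence under 600 bases had a median log2 change of -0.30 in mock and -0.89 in METTL7A1 cells, beside -0.87 and -1.11 for the 1428 such genes. In mock cells 4 of these 9 were lower and 1 higher, beside 58.3% and 1.33% of such genes, and in METTL7A1 cells 6 were lower, beside 67.4%. Among them were Eif4ebp1 with 117 codons and Eif1 and Eif1b with 113 each. The 19 members with 1500 bases or more were at 0.42 and 0.72, beside 0.41 and 0.50 for 4863 genes, and 5 of them were higher in mock cells, beside 28.8% of such genes. In METTL7A1 cells 11 of them were higher, beside 38.2%, and 1, Eif2d, was lower, beside 7.3%. In this class are Eif4g1 with 1600 codons, Eif4g3 with 1578 and Eif5b with 1216. The remaining 23 members were at 0.20 and 0.18, beside 0.005 and -0.006 for 4546 genes. An ATG ahead of the start codon was annotated in 18 members, or 35.3%, and in 51.3% of genes.

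**Figure D5:**
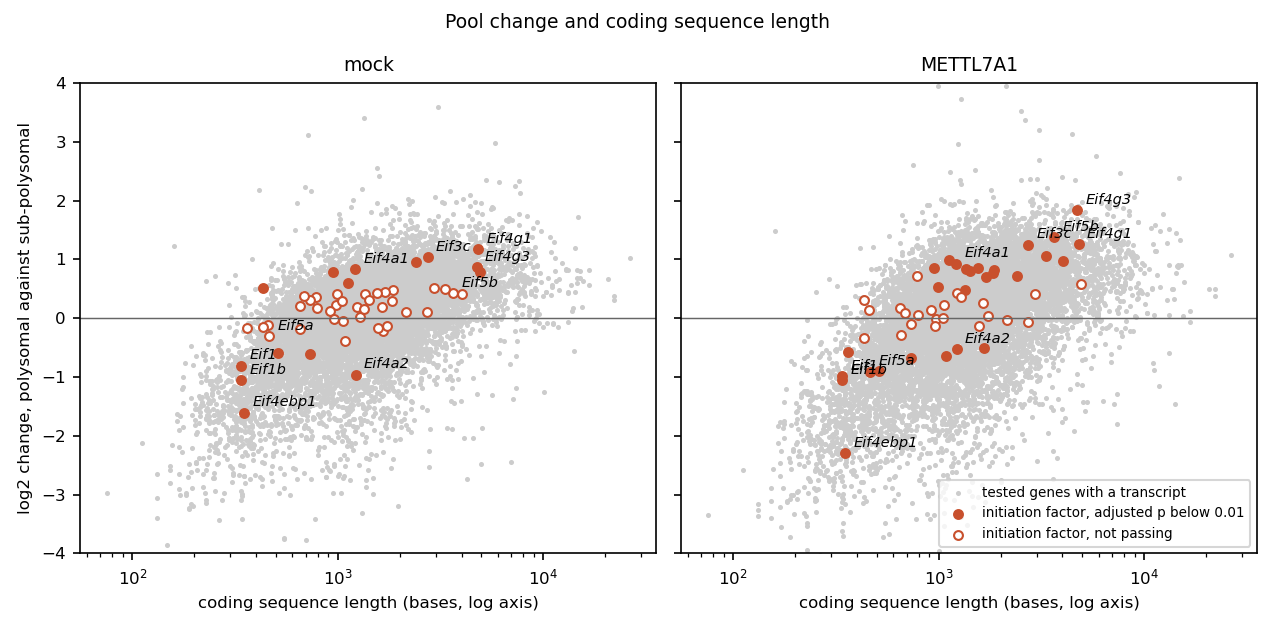
Polysomal against sub-polysomal log2 change plotted against coding sequence length (log axis) in mock and METTL7A1 cells, with all tested genes that have an annotated coding transcript in grey and the 51 initiation factor mRNAs in red, filled where the adjusted p was below 0.01. Eif4ebp1, Eif1 and Eif1b lie low at the short end and Eif4g1, Eif4g3 and Eif3c high at the long end, while Eif4a1 and Eif4a2 lie apart at nearly the same length.

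Lengths and GC content are those of GENCODE transcripts, whose genes differ in position from the count table for Eif1b, Eif2s3x, Eif2d, Eif2b3, Eif3a, Eif4a1, Eif4a2 and Eif4g1 among the tested members. For Eif2b3 the transcript has 1555 bases, against 4028 counted exon bases. Members at the same position can differ in length too, among them Eif4e2 (1807 against 7497 bases) and Eif4g3 (6139 against 10117). With offsets for the length of the transcript, which level out how the counts of a library depend on it and were chosen after the data were seen, 20 members passed in mock, 10 of them among the 15 reported, beside 25.7% of 10837 genes. In METTL7A1 cells 29 passed, 21 of them among the 28, beside 38.2% of genes. Eif1b then had a log2 change of -0.36 in mock (adjusted p = 0.0603) and -0.14 in METTL7A1 cells (0.473), and Eif1 one of -0.38 (0.0603) and -0.41 (0.0348). Eif4ebp1 passed in both genotypes, at -2.15 in METTL7A1 cells. In mock and METTL7A1 cells Eif4a2 passed at -0.89 and -0.44 and Eif4g1 at 0.74 and 0.75. Eif5a in METTL7A1 cells (adjusted p = 0.0161), Eif4g3 in mock cells (0.0979) and the eIF2 kinases (lowest 0.0144) missed the threshold. With offsets for the GC content of the transcript, 25 members passed in METTL7A1 cells, 23 of them among the 28, beside 44.5% of genes. The 5 that no longer passed were Eif2s2 at 0.20, Eif2s3x at 0.44, Eif3e at 0.20, Eif2b3 at 0.49 and Eif2ak2 at 0.49, with adjusted p-values of 0.0108 (Eif2b3) to 0.246 (Eif3e). The difference between the genotypes in sub-polysomal RNA moved with GC content, with a rho of 0.545 across the members and 0.441 across 10837 genes. With the GC offsets 6 members passed there, 4 of them among the 7 reported, beside 15.5% of genes, and Eif6 was at 0.46 (adjusted p = 0.0144), Eif3a at -0.52 (0.0125) and Eif5a2 at -0.98 (0.0204). For the shift rho with GC content was -0.426 across the members and -0.479 across genes. With coding length the shift had a rho of 0.482 across the members and 0.188 across genes. The part of GC content and of coding length in these differences was not tested.

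The other genes of translation were described in 4 lists, whose medians stand beside 0.054 in mock and 0.058 in METTL7A1 cells for all genes. Their counts stand beside 15.7% of all genes that were higher and 17.9% lower in mock, and 23% higher and 23.7% lower in METTL7A1 polysomes. The symbols of the 7 elongation genes all start with Eef, and the list holds Eef2k and Eef1e1 beside the factors themselves. Of these 7, 2 were higher in mock polysomes, and 3 were higher and 1 lower in METTL7A1 polysomes, with medians of 0.33 and 0.41. Eef1a1, which delivers aminoacyl-tRNA, was the highest in METTL7A1 cells at 1.44 (standard error 0.18, adjusted p = 2.16e-06), and Eef1e1 the lowest at -0.67. Eef1e1 missed the threshold without METTL7A1 polysomal replicate D or E or METTL7A1 sub-polysomal replicate E or F (adjusted p = 0.0121 to 0.0223). Of the 2 higher calls in mock cells 0 were kept with Actb scaling, 2 with GC and 1 with length offsets, and of the 3 in METTL7A1 cells 2, 2 and 3. The mock call of Eef1d was lost without mock sub-polysomal A, B or C (adjusted p = 0.0142 to 0.0199). Leaving out mock polysomal A or C gave 0.0139 to 0.0162, and the mock libraries alone 0.0259. In METTL7A1 cells Eef1g, at 0.53 (adjusted p = 0.00956), missed the threshold without each METTL7A1 library in turn (0.0142 to 0.0425). It was also lost without mock sub-polysomal B or mock polysomal B or C (0.0114 to 0.0126) and with RLE factors (0.0168). Of the 5 genes of termination and recycling, 1 was higher and 1 lower in mock cells, and 3 were higher and 1 lower in METTL7A1 cells, with medians of 0.31 and 0.54. Of the 3 higher calls in METTL7A1 cells only that of Gspt1 was kept with Actb scaling and with either kind of offsets. Etf1 then had an adjusted p of 0.078 with Actb scaling, 0.099 with GC and 0.0326 with length offsets, and Abce1 one of 0.153, 0.0493 and 0.133. Abce1 was also lost without mock sub-polysomal replicate A, METTL7A1 sub-polysomal replicate D or E or METTL7A1 polysomal replicate D, E or F (adjusted p = 0.013 to 0.0415), with RLE factors (0.0144) and with at least 10 counts in every library (0.0122). The release factor Gspt1 was higher at 1.03 and 1.13, and Denr, which recycles small subunits, was lower at -0.99 and -0.62. In METTL7A1 cells Denr missed the threshold without METTL7A1 sub-polysomal replicate E or METTL7A1 polysomal replicate D, E or F (adjusted p = 0.0112 to 0.0215). Of the 8 poly(A)-binding proteins and cofactors, 3 passed as higher and 2 as lower in mock, as did 2 and 1 in METTL7A1 cells, with medians of 0.11 and 0.32. Pabpc1, the main poly(A)-binding protein, was the lowest at -2.07 (standard error 0.20, adjusted p = 6.04e-07) and -1.70 (standard error 0.20, adjusted p = 1.25e-06), and the helicase Ddx3x the highest at 0.94 and 1.27. In mock cells Ddx3x missed the threshold without mock sub-polysomal replicate A or B or mock polysomal replicate A or B (adjusted p = 0.0112 to 0.032). With length offsets 0 of the 3 higher mock calls were kept, those of Ddx3x at 0.61 (adjusted p = 0.032), Dhx29 at 0.36 (0.109) and Larp1 at 0.13 (0.504). With Actb scaling 1 was kept, that of Larp1, beside 0.0174 for Ddx3x and 0.0177 for Dhx29. In a fit of the mock libraries alone these had 0.0119 and 0.0219. Dhx29 also missed the threshold without mock sub-polysomal replicate B or C or mock polysomal replicate A (adjusted p = 0.0151 to 0.0504), with GC offsets (0.0102) and by DESeq2 (0.0131).

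Of the 10 genes that control eIF2 and eIF4 activity, 2 passed as higher and 1 as lower in mock, as did 3 and 3 in METTL7A1 cells, with medians of 0.43 and 0.40. Atf4, the transcription factor translated when eIF2 is phosphorylated, was the lowest at -1.92 (standard error 0.23, adjusted p = 4.55e-06) in mock and -2.67 (standard error 0.24, adjusted p = 8.36e-08) in METTL7A1 cells. Cyfip1, whose protein holds eIF4E with FMRP, passed as higher at 0.56 (standard error 0.16, adjusted p = 0.00735) in mock and 0.64 (standard error 0.16, adjusted p = 0.00202) in METTL7A1 cells. In mock cells it missed the threshold without any 1 of 7 libraries (mock sub-polysomal A, B or C, mock polysomal A, METTL7A1 sub-polysomal E, METTL7A1 polysomal D or E; adjusted p = 0.0103 to 0.0648). The mock call was also lost with the letter as a block (adjusted p = 0.0133) and with the mock libraries alone (0.0279). RLE factors gave 0.0127 and DESeq2 0.0131. The METTL7A1 call was lost without METTL7A1 sub-polysomal D or METTL7A1 polysomal E (adjusted p = 0.0109 to 0.0136). Both calls were lost with Actb scaling and with either kind of offsets, and with those for length the log2 changes were 0.038 and 0.044. Rptor, a part of the mTOR complex that phosphorylates 4E-BP1, was the highest in mock cells at 1.16, or 0.63 without passing with offsets for length (adjusted p = 0.0115). At 0.56 (standard error 0.17, adjusted p = 0.00979) it passed narrowly in METTL7A1 cells, and offsets for length turned it to -0.055. That call was lost without mock sub-polysomal A, B or C, mock polysomal B, METTL7A1 sub-polysomal E or F or METTL7A1 polysomal D or E (adjusted p = 0.0107 to 0.0692). It was also lost with Actb scaling (0.198), RLE factors (0.0134), DESeq2 (0.0149) and at least 10 counts in every library (0.0142). Of the 3 higher calls in METTL7A1 cells 0 were kept with Actb scaling or with length offsets, and 1 with GC offsets, while of the 3 lower calls 3 were kept with Actb scaling, 3 with length and 1 with GC offsets. The highest in METTL7A1 cells was Fmr1 at 1.03, which did not pass (adjusted p = 0.0247). Between the genotypes 0 genes of the 4 lists passed in polysomal RNA by edgeR, with 7 of 30 below an unadjusted p of 0.05, beside 31.2% of all genes. In sub-polysomal RNA 1 of the 7 elongation genes was lower, beside 7.69% of all genes, namely Eef1a1 at -1.15 (standard error 0.18, adjusted p = 0.000117). There, 3 of the 10 genes of eIF2 and eIF4 control were higher, beside 10.5% of all genes. Mknk2, a kinase of eIF4E, was at 1.00 (standard error 0.14, adjusted p = 5.39e-05). Ppp1r15a, a partner of the eIF2 phosphatase, was at 0.92 (standard error 0.20, adjusted p = 0.00185). Rptor was at 0.79 (standard error 0.20, adjusted p = 0.00536). Ppp1r15a missed the threshold without mock sub-polysomal replicate C (adjusted p = 0.0186), and Rptor without mock sub-polysomal replicate A, B or C or METTL7A1 sub-polysomal replicate D (adjusted p = 0.0145 to 0.0373). With GC offsets the adjusted p was 0.0205 for Ppp1r15a and 0.0877 for Rptor. For the shift 0 genes of the lists passed by edgeR, with 7 of 30 below an unadjusted p of 0.05, beside 15.6% of all genes.

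Between the genotypes the elongation genes ran from -1.15 (Eef1a1) to 0.55 (Eef1e1) in sub-polysomal RNA, and from -0.56 (Eef2k) to 0.44 (Eef1d) in polysomal RNA. For termination and recycling the ends were -0.42 (Denr) to 0.40 (Mcts1) and -0.10 (Abce1, 0.013 with Actb scaling) to 0.25 (Etf1). For the poly(A)-binding proteins and cofactors they were -1.32 (Pdcd4) to 0.18 (Larp1) and -0.94 (Pdcd4) to 0.21 (Ddx3x), and for the control of eIF2 and eIF4 -0.58 (Rps6kb1) to 1.00 (Mknk2) and -0.44 (Rps6kb1) to 0.66 (Ppp1r15a). The shift ran from -0.98 (Eef2k) to 0.86 (Eef1a1) for elongation and from -0.48 (Mcts1) to 0.37 (Denr) for termination and recycling. In the remaining lists it ran from -0.22 (Larp1) to 0.39 (Dhx29) and from -0.75 (Atf4) to 0.20 (Ppp1r15b). Of the ends of these genotype and shift ranges, only those of Eef1a1 and Mknk2 in sub-polysomal RNA passed. In mock pools the elongation genes ran from -0.42 (Eef1b2) to 0.86 (Eef2k). There Eef2k passed (adjusted p = 0.00237), but not without mock sub-polysomal replicate B or C (adjusted p = 0.0125 to 0.0388), with Actb scaling (0.0122), with the mock libraries alone (0.0103) or with offsets for length (0.221).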

How the data were processed

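The authors' deposited counts per gene were used as they were, with the exon length column of the same table; by the submitters' notes they come from reads aligned with STAR 2.5.3a and counted with featureCounts. Genes that reached 1 CPM in 3 or more libraries were fitted across all 12 libraries with edgeR 4.0.16 (R 4.3.3; TMM factors, 1 mean per group, 2-sided quasi-likelihood tests, Benjamini-Hochberg adjustment over all genes tested). Other settings were RLE, upper-quartile and Actb scaling, other filters, DESeq2 1.42.0, limma-voom 3.58.1, a block for the replicate letter, the compared groups alone and each library left out. Offsets for GC content and transcript length, and the other tools at an adjusted p below 0.05, were chosen after seeing the data. Transcript features came from GENCODE vM21 and start sites from RefSeq, read with Python 3.11.15, and plots were drawn with Matplotlib 3.10.9. The genes named are Mettl7a1, the initiation factors the study names, the highest and lowest member of each factor group in each comparison, members beyond a log2 change of 1.5, Eif2s3x, Eif1, Eif5, Eif5a, Eif5b and Eif6, and the extremes of each list. Further members that passed, or missed narrowly, were named after their values were seen. The members and lists were chosen with earlier results of these data known.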

Additional observations from a re-analysis of the deposited data

How the results depend on the processing

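For the 85 results that passed among the members, the genes of the 4 lists and Mettl7a1, the alternatives gave 1939 values, of which 1706 kept direction and call, 232 kept the direction without passing, and 1 turned, that of Rptor in METTL7A1 pools at -0.0553 with length offsets. The number of members passing between the pools in mock cells was 15, 10 in a fit of the mock libraries alone (25.8% of genes), 17 by DESeq2 (33.6%), 1 with the limit of 1.5 on the log2 change, and 12 to 17 with 1 library left out (25.1% to 33.7%). At an adjusted p below 0.05 it was 21 by edgeR (47% of genes) and 24 by DESeq2 (44.3%). In METTL7A1 cells it was 28, 18 with Actb scaling (38.8%), 2 with that limit, and 22 to 29 (37.5% to 48.5%). Between the genotypes in polysomal RNA it was 0, 1 without a filter (6.56% of 22519 genes), 4 by DESeq2 (10.5%), 3 with GC offsets (14.5%), 3 with length offsets (12.9%), and 0 to 2 (4.87% to 9.62%). At an adjusted p below 0.05 it was 5 by edgeR (18% of genes), 6 by DESeq2 (17.3%) and 5 by limma-voom (18.6%). In sub-polysomal RNA it was 7, 13 by DESeq2 (20.3%), 0 with that limit, 14 by each of the 3 tools when the adjusted p had to be below 0.05 (31.4% of genes by edgeR, 30.2% by DESeq2 and 29.8% by limma-voom), and 3 to 8 (11.3% to 21.1%). For the shift it was 0, 1 by DESeq2 (0.524% of genes; 3 members and 3.01% at an adjusted p below 0.05), and 0 to 0 with 1 library left out. The cause of these differences was not tested.

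Other values turned without having passed. Eif5b was at -0.15 in mock pools with length offsets, and Eif4e in METTL7A1 pools at -0.0501 with Actb scaling, -0.0892 with GC and -0.255 with length offsets. Eif4a2 in polysomal RNA was at -0.0283 with upper-quartile factors, -0.00317 with at least 10 counts, -0.0495 without mock polysomal replicate A (-0.0495 to 0.0621 with 1 library left out) and -0.0236 with length offsets. Eif4b in sub-polysomal RNA was at 0.246 with Actb scaling, 0.0161 without a filter, 0.0256 without METTL7A1 sub-polysomal replicate F (-0.0304 to 0.0256 with 1 library left out), 0.111 with GC and 0.0406 with length offsets, and Eif4g1 there at -0.0141 with GC offsets. The shift of Eif2s1 was -0.0712 with Actb scaling, -0.127 with GC offsets, -0.00901 without mock sub-polysomal replicate C and -0.00935 without METTL7A1 sub-polysomal replicate D (-0.00935 to 0.17), and that of Eif4g1 -0.0636 with Actb scaling and -0.0168 without mock polysomal replicate B (-0.0168 to 0.179).

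The labels do not say that libraries with the same letter share a culture. Across genes, each letter's residuals in the 2 pools had r = 0.101 (A), -0.119 (B), -0.3 (C), 0.0371 (D), 0.0239 (E) and 0.0316 (F), and with the letter as a block 14, 28 and 0 members (30.2%, 44.1% and 0% of genes) passed in mock pools, METTL7A1 pools and the shift. Opposite-strand exon overlaps of 14 members, and low counts such as those of Eif2ak3, Eif5a2 and Eif4g3, and transcripts that may differ from those counted, limit what these values can show.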
